A study of Mus musculus with 18 samples.

Results

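The genes for cytosolic ribosomal proteins, the structural proteins of the ribosome that translates nuclear mRNA, were examined in leukocytes that left or stayed in inflamed tissue. Members were the protein-coding genes whose symbol begins with Rpl or Rps followed by a number, together with Rplp0, Rplp1, Rplp2 and Rpsa, without the Rps6k kinases and pseudogene symbols. This gave 86 of the 49585 genes in the count table: 77 core genes (46 of the large and 31 of the small subunit), 8 paralogues of a core gene and Rps19bp1. The last matched by its symbol alone and encodes a nucleolar binding partner of a ribosomal protein, not a part of the ribosome. The members lay on 19 chromosomes, with 14 on chromosome 7 and 4 on the X chromosome.

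A mature ribosome holds a small subunit, which reads the mRNA, and a large subunit, which joins the amino acids. Each core protein is present as a single copy per ribosome, except the acidic stalk proteins P1 and P2, and production of all of them is tied to cell growth. Their mRNAs typically begin with a terminal oligopyrimidine (TOP) tract, a C followed by a run of C or U, through which growth signaling by mTORC1 controls their translation. Resting lymphocytes are known to hold these messages in store and to translate them on activation.

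The data were bulk RNA-Seq read counts from 18 libraries in 6 groups of 3. By the labels, which give 1 sorting protocol for all groups, the cells were viable CD45+ Kaede red+ cells from Kaede mice, which express a photoconvertible protein in their cells, so that red cells had been in the tissue when it was exposed to light. Inflamed mice had received in vitro polarized OT-II CD45.1 Th1 cells and OVA in Complete Freund's Adjuvant before a challenge with heat-aggregated ovalbumin (HAO) in the footpad (joint) or ear pinna (skin). Nonmigrated cells came from the inflamed joint or ear itself, and migrated cells from the draining lymph node (LN) a day after photoconversion. The remaining groups were cells labeled as having migrated from joint or ear to LN at steady state, with PBS and KG in the titles of the joint group and Naive in those of the skin group. The titles of the inflamed skin groups hold KR instead. No source used here explains these letters, but KR may stand for Kaede red and KG for Kaede green. The joint steady-state cells may therefore not have been sorted as Kaede red+, which limits every comparison with that group. Each library was a pool of mice of both sexes, matched for age by the study's methods, and the hosts kept their own leukocytes beside the transferred T cells. By the same methods the donors were OT-II CD45.1 mice and the Kaede mice were recipients. A sort for Kaede red+ cells would therefore leave the transferred cells out. With 3 pools per group, p-values measure the spread between these pools.

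Libraries held 19239531 to 43814403 counts assigned to genes, and those from inflamed skin and its LN were the shallowest (19239531 to 22528895). In these, reads in no gene were 0.103% to 0.150%, against 0.254% to 0.624% in all other libraries. Their count columns are also named in another pattern. This difference between libraries cannot be told apart from site when inflamed joint and inflamed skin are compared. The same holds for skin migrated against steady-state cells. The sorted cells expressed the leukocyte gene Ptprc (CD45) at group means of 1265 to 2286 CPM (counts scaled to a common library size with TMM factors). Cell type markers differed widely between groups. The summed level of 7 neutrophil markers was 5142 to 15992 CPM in joint nonmigrated and 34.5 to 89.8 CPM in joint migrated cells, and that of 8 monocyte and macrophage markers was 6484 to 8333 and 291 to 421 CPM. In skin the neutrophil sum was 2081 ± 509 CPM in nonmigrated and 20.6 ± 6.50 CPM in migrated cells, with Ly6g at or below 3 counts in the latter. The 8 T cell markers rose in joint migrated cells (8 of 8 passed the test), as did all 6 B cell markers, and the dendritic cell sum was 104.7 ± 20.7 CPM in joint nonmigrated and 3948 ± 1692 CPM in joint migrated cells (SD, n = 3). Keratinocyte markers fell in skin migrated cells (4 of 4), and fibroblast markers fell at both sites (4 of 4). The part of this shift in cell types in the results below was not tested, and in bulk samples fewer cells of a type and less RNA per cell cannot be told apart.

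Of the 86 members, 85 were tested. Rpl10l, a testis-expressed copy of Rpl10, had a count of 0 in all 18 libraries. The share of all assigned counts held by the 86 genes was taken first, since it needs no scaling between libraries. In joint nonmigrated cells it was 2.90%, 3.18% and 2.77% in replicates 1 to 3, and in joint migrated cells 7.86%, 6.63% and 5.73%. In skin it was 2.41%, 2.72% and 2.46% in nonmigrated and 6.45%, 6.83% and 6.43% in migrated cells. Every migrated library thus lay above every nonmigrated library, and the ratio of group means was 2.28 in the joint and 2.60 in the skin. At steady state the share was 7.39%, 7.31% and 10.2% in the joint-draining LN and 8.75%, 7.82% and 7.58% in the skin-draining LN. Joint node steady replicate 3 stood apart from the other libraries of its group. Migrated cells from inflamed tissue held 0.811 of the steady-state share in the joint node and 0.816 in the skin node.

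**Figure D1:**
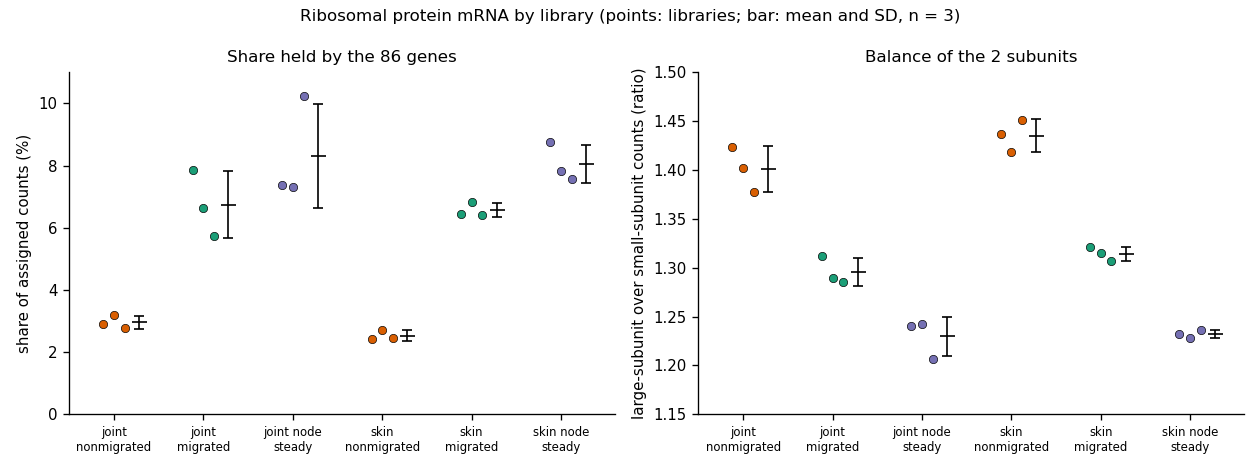
The left panel plots the share of assigned counts (%) held by the 86 genes and the right panel the ratio of large-subunit to small-subunit counts, with a point per library and the mean and SD of each group (n = 3). Nonmigrated libraries sit between 2.41% and 3.18% on the left and have the highest ratios on the right (1.38 to 1.45), where the axis does not start at 0.

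The balance between the subunits also differed by group. Counts of large-subunit members divided by those of small-subunit members were 1.38 to 1.42 in joint nonmigrated and 1.42 to 1.45 in skin nonmigrated cells. They were 1.29 to 1.31 in joint migrated and 1.31 to 1.32 in skin migrated cells, and 1.21 to 1.24 in both steady-state groups. The nonmigrated, migrated and steady-state libraries did not overlap in this ratio, which does not depend on the scaling of libraries.

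Levels within the family were compared per length, from counts divided by the total exon length of each gene and scaled to a common total per library, as in TPM. The highest were Rplp1 (mean TPM over 18 libraries 7601), Rps15 (4273), Rps3a1 (4096), Rpl19 (3789) and Rplp0 (3752). The lowest core genes were Rpl22 (264), Rpl24 (295), Rpl13a (315), Rps15a (340) and Rpl35a (357). Same-strand genes overlap 35 members in the annotation, among them Rpl24 (Gm28037) and Rpl13a (Gm45713). Reads ambiguous between genes were not counted (2.06% to 2.69% per library), so levels of such members can be understated. The choice of length moved single genes far, because some annotated genes hold long alternative exons. With the length of the longest transcript that has an agreed coding sequence, Rps27 was highest (6973), before Rplp1 (5182) and Rps29 (4433), and Rpl22 was again lowest (256). The order of the 77 core genes under both lengths correlated with Spearman's rho 0.764.

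The start of the transcripts was examined for the TOP tract with RefSeq promoters of the GRCm38.p6 build, in which 66 members had an entry. A C followed by at least 4 further C or T from the annotated first base was found in 14 of the 66 members (21.2%), against 3.01% of all 27025 genes in the table. Allowing a C plus at least 5 further C or T anywhere from 10 bases before to 50 after the start, 55 members had a tract (83.3%), against 42.9% of all genes. Only the sense strand was searched. The windows below span 15 bases before to 15 after the annotated start, and capitals mark a run of at least 5 C or T that opens with C and reaches or begins within 5 bases of the start. Rps15, Rps3a1, Rpl19 and Rplp0 are shown as the highest members per exon length with an entry (Rplp1 had none). Rps27 and its copy Rps27rt are shown for their shared coding sequence, Rps6, Rps10 and Rps18 for their tract, and the others because they moved apart from the family. Where the table lists several starts for a gene, 1 is shown.
Rps27, chr3:90213634-90213663 (minus strand): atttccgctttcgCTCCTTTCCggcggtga
Rps6, chr4:86857353-86857382 (minus strand): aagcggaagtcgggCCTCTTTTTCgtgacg
Rps10, chr17:27635230-27635259 (minus strand): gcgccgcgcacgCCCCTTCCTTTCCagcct
Rps18, chr17:33955651-33955680 (minus strand): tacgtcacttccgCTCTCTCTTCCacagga
Rpl19, chr11:98026909-98026938 (plus strand): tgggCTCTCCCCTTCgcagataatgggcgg
Rps15, chr10:80292416-80292445 (plus strand): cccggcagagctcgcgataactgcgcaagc
Rps3a1, chr3:86142654-86142683 (minus strand): ttaaagccggaagggcgaaagagcaagggt
Rplp0, chr5:115559452-115559481 (plus strand): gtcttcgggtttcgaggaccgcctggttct
Rps27l, chr9:66946071-66946100 (plus strand): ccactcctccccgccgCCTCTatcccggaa
Rps27rt, chr9:114982725-114982754 (minus strand): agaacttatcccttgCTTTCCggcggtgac
Rpl3l, chr17:24727811-24727840 (plus strand): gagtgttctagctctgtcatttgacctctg
Rpl7l1, chr17:46782642-46782671 (minus strand): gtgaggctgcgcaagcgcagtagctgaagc
Rps19bp1, chr15:80264292-80264321 (minus strand): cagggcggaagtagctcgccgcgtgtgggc

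Rpl7l1 and Rps19bp1 had no tract by either rule. Among core genes with an entry, the 49 with a tract in the wider window had a median log2 fold change (migrated over nonmigrated) of 0.84 in the joint and 1.06 in the skin. The 8 without one (Rpl22, Rpl24, Rpl27, Rplp0, Rps3, Rps4x, Rps16 and Rps28) had medians of 0.84 and 1.08. No match says only that these letters were not in this window.

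The first comparison asked how migrated and nonmigrated cells of the inflamed joint differed. Of the 85 members tested, 78 were higher in migrated cells and 2 were lower at an adjusted p under 0.05 (edgeR's quasi-likelihood test, Benjamini-Hochberg adjustment over all 16777 genes). Over all genes tested, 27.1% were higher and 28.4% lower by the same rule. The median log2 fold change of the members was 0.84 (1.79-fold), beside 0.02 over all genes. Most changes were smaller than 2-fold: 19 members were higher by more than 2-fold (16.0% of all genes) and 1 was lower (18.4% of all genes). Within the core, 76 of 77 genes rose. Small-subunit genes had a median log2 fold change of 0.92 and large-subunit genes of 0.82.

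Among the members that passed the test, those with the largest rise were Rpsa, Rpl12, Rpl13a, Rps19 and Rps27rt. Rpsa encodes a small-subunit protein that is also known as the laminin receptor. Its level was 931, 1068 and 900 CPM in joint nonmigrated and 2877, 2863 and 2554 CPM in joint migrated cells. The groups did not overlap, and the log2 fold change was 1.52 ± 0.14 (SE, adjusted p = 5.39e-06, edgeR). Rpl12 encodes a protein at the base of the stalk where elongation factors bind. It was at 306, 376 and 319 CPM in nonmigrated and 1108, 944 and 780 CPM in migrated cells, a log2 fold change of 1.50 ± 0.16. Rpl13a encodes a large-subunit protein that can leave the ribosome to silence inflammatory mRNAs, and its log2 fold change was 1.44 ± 0.18. Rps19, a small-subunit gene whose human counterpart is mutated in Diamond-Blackfan anemia, was at 262, 327 and 277 CPM in nonmigrated and 783, 830 and 691 CPM in migrated cells. Its log2 fold change of 1.41 ± 0.13 had the smallest adjusted p of the family (4.28e-06, edgeR).

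Members of defined parts of the ribosome rose together. The stalk genes Rplp0, Rplp1 and Rplp2, which recruit translation factors, had log2 fold changes of 0.96 ± 0.12, 1.03 ± 0.15 and 0.97 ± 0.14. Rplp0 went from 1114, 1259 and 1075 CPM in nonmigrated to 2469, 2250 and 2002 CPM in migrated cells, with no overlap. Rpl5 and Rpl11, which carry the 5S rRNA into the ribosome and restrain the p53 inhibitor Mdm2 when free, rose by 0.96 ± 0.13 and 0.74 ± 0.13 on the log2 scale. Of the 4 X-linked genes, Rpl36a (0.93 ± 0.14), Rpl39 (0.87 ± 0.13) and Rps4x (0.81 ± 0.12) rose. The fourth, Rpl10, which forms part of the site where the subunits and tRNA meet, was the core gene that did not pass the test. Rpl10 was at 597, 667 and 548 CPM in nonmigrated and 724, 697 and 681 CPM in migrated cells (log2 fold change 0.22 ± 0.11, adjusted p = 0.110, edgeR). The next smallest core changes were those of Rps25 (0.33 ± 0.11) and Rps27a (0.38 ± 0.12), a gene whose product is made as a fusion with ubiquitin.

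In the skin 81 members were higher in migrated cells and 1 was lower (28.1% and 28.9% of all genes), and 54 were higher by more than 2-fold (15.7% of all genes) and 1 was lower (19.7% of all genes). The median log2 fold change was 1.06 (2.09-fold), beside 0.01 over all genes, and all 77 core genes rose. Among the members that passed, Rps19, Rpsa and Rpl12 had the largest rises. Rps19 was at 222, 243 and 200 CPM in skin nonmigrated and 712, 776 and 751 CPM in skin migrated cells, with no overlap and a log2 fold change of 1.75 ± 0.13 (adjusted p = 1.04e-06, edgeR). Rpsa followed with 1.65 ± 0.14 and Rpl12 with 1.62 ± 0.16. Next came Rpl36a (1.43 ± 0.14), a large-subunit gene at 101, 106 and 104 CPM in nonmigrated and 284, 277 and 279 CPM in migrated cells. Rpl10 had again the smallest core change, 0.58 ± 0.11, and it passed the test in skin (adjusted p = 0.000825, edgeR).

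**Figure D2:**
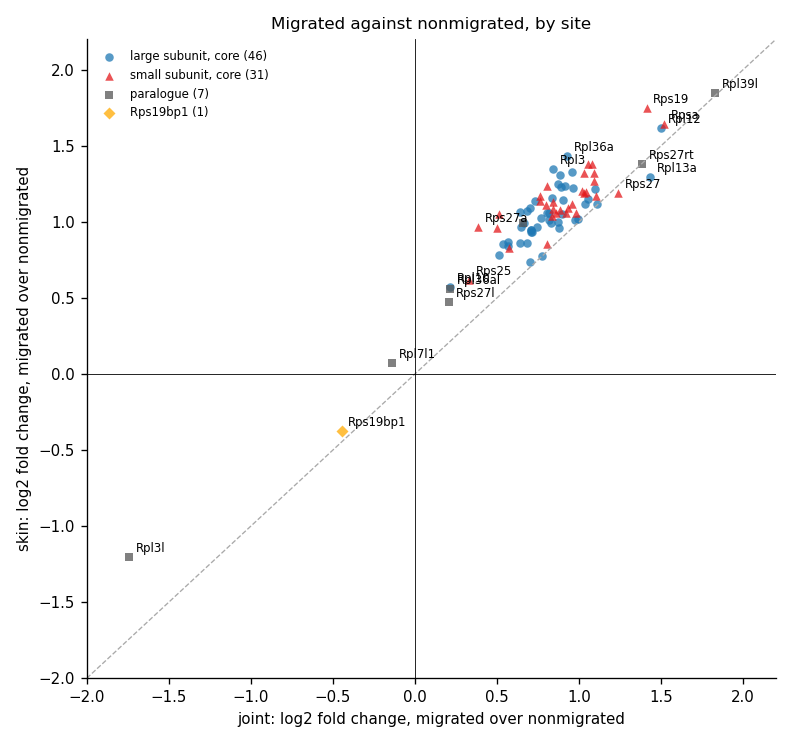
Each point is a gene, with its log2 fold change of migrated over nonmigrated cells in the joint on the horizontal axis and in the skin on the vertical axis, and the dashed line marks equal values. The 77 core genes lie in the upper right, from Rpl10 (0.22 and 0.58) to Rpsa (1.52 and 1.65), while Rpl3l and Rps19bp1 lie in the lower left.

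Across the 77 core genes the joint and skin fold changes, which come from separate libraries, correlated with Spearman's rho 0.763. The genes were measured in the same libraries of each site and are not independent. The difference between the sites was tested as an interaction. No member passed in either direction (5.01% and 2.97% of all genes did), the smallest adjusted p was 0.060 (edgeR), and 14 members had an unadjusted p under 0.05. The median difference, joint minus skin, was -0.24 on the log2 scale, with 81 of 85 members negative and a median SE of 0.18. The most negative values were those of Rps27a (-0.58 ± 0.17) and Rps9 (-0.54 ± 0.17). DESeq2's Wald test gave 2 members that passed, and so did edgeR without joint migrated replicate 1 and without skin nonmigrated replicate 3.

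Nonmigrated cells of the 2 sites were compared directly. In the joint 19 members were higher than in the skin and none was lower (12.4% and 15.1% of all genes), with a median log2 difference of 0.22. Those with the largest difference were Rpl10a (0.61 ± 0.13), Rps27a (0.61 ± 0.12), Rpl36a (0.57 ± 0.14), Rps9 (0.54 ± 0.12) and Rpl3 (0.51 ± 0.13). Rps9, a small-subunit protein involved in accurate decoding, was at 780, 871 and 762 CPM in joint and 491, 537 and 633 CPM in skin nonmigrated cells, with no overlap. The count rested on single libraries: it was 3 without joint nonmigrated replicate 2 and 4 without skin nonmigrated replicate 1. The 4 keratinocyte markers summed to a mean below 1 CPM in joint nonmigrated cells, while the neutrophil sum was higher there than in skin, and the part of these cells in the difference was not tested.

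Migrated cells from joint and skin differed little in the family. Rpl35, a large-subunit gene near the exit tunnel of the ribosome, was the single member that passed, and it was lower in joint migrated cells (0.799% of all genes were higher and 0.983% lower). Its level was 506, 432 and 384 CPM in joint and 627, 691 and 635 CPM in skin migrated cells (log2 difference -0.56 ± 0.12, adjusted p = 0.0441, edgeR). It did not pass once any 1 of the 6 libraries was left out. The median difference over the members was -0.04, with quartiles of -0.17 and 0.04, and 0.04 when libraries were scaled by total counts.

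The comparison with steady-state nodes showed a different pattern, in which most core genes moved little and a few members moved far. Cell type markers differed here as well. The B cell sum was 842 CPM in joint migrated and 4304 CPM in joint steady-state cells, and 162 and 3128 CPM in the skin. The dendritic cell sum was 3948 and 623 CPM in the joint and 4791 and 512 CPM in the skin. The part of these cell types in the values below was not tested. In the joint node 18 members were lower in migrated cells of inflamed mice and 3 were higher (22.7% and 27.1% of all 17107 genes), with a median log2 fold change of -0.27. The unexplained KG in the titles of the joint steady-state group applies to these values. In the skin node 12 were lower and 6 higher (30.6% and 34.4% of all genes), with a median of -0.10. Scaled by total counts, which moved the median of all genes there by -0.17, 33 were lower and 2 higher. Small-subunit core genes had medians of -0.36 and -0.25, and large-subunit core genes of -0.24 and -0.05. Of the 17 core genes lower in the joint node and the 10 lower in the skin node, 7 were shared, which is 41.2% and 70.0% of each list. Joint node steady replicate 3, with the highest share of ribosomal protein counts, weighed on the joint comparison: without it 6 members were lower, 8 were higher and the median was -0.05. Without joint migrated replicate 1 the count of lower members was 41, and without joint migrated replicate 3 it was 6.

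Rps27, which encodes a zinc-finger protein of the small subunit, had the largest fall in both nodes. It was at 1524, 1522 and 2335 CPM in the joint node at steady state and 1267, 1130 and 850 CPM in joint migrated cells (log2 fold change -0.70 ± 0.19, adjusted p = 0.00723, edgeR). In the skin node it was at 1821, 1491 and 1472 CPM at steady state and 832, 846 and 916 CPM in migrated cells (-0.85 ± 0.19, adjusted p = 0.00137, edgeR). The groups did not overlap at either site. Rps24, Rps20, Rpl5 and Rpl36a also fell in both nodes, and Rpl12 fell in the joint node (-0.56 ± 0.17). Rplp1 fell by 0.61 on the log2 scale in the skin node. In the other direction, Rpsa (0.43 ± 0.15), Rpl27 (0.43 ± 0.15) and Rpl35 (0.40 ± 0.16) rose in the skin node. These 3 calls were lost under 6, 6 and 8 of the alternatives, among them total counts (adjusted p = 0.128, 0.131 and 0.199, edgeR) and leaving out skin migrated replicate 2 or 3 or skin node steady replicate 2 or 3. Between the 2 steady-state groups no member passed the test (5.31% of all genes were higher in the joint node and 2.30% lower). There 1 member had an unadjusted p under 0.05 and DESeq2 called 1, and the median difference was 0.11, which was -0.09 without joint node steady replicate 3. The change from steady state was also compared between the nodes, a contrast added after seeing the data, and 1 member passed, Rpl7l1, with a smaller value in the joint node, a call lost under 15 of 19 alternatives (4.21% of all genes were higher and 5.86% lower).

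**Figure D3:**
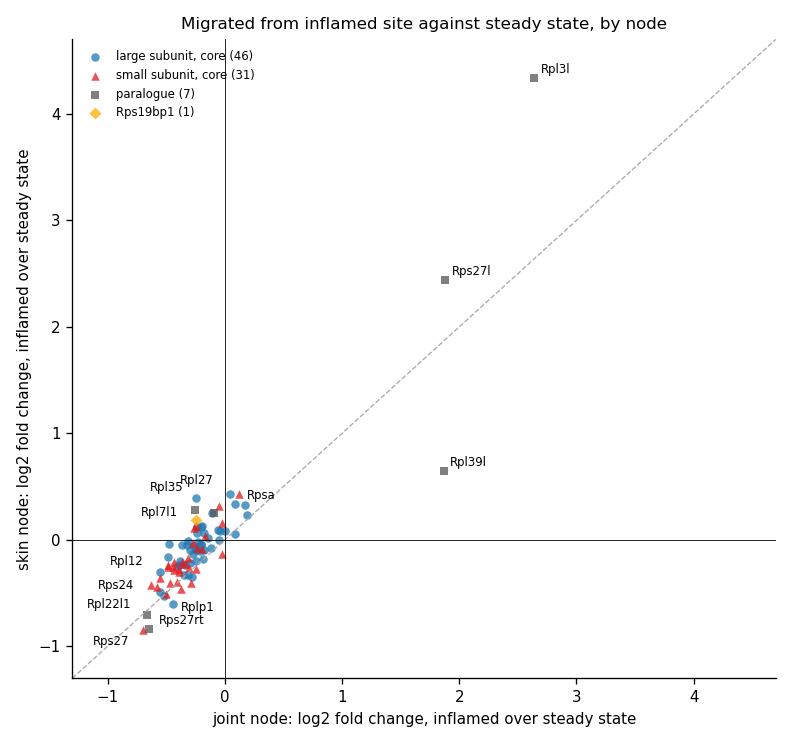
Each point is a gene, with its log2 fold change of migrated cells from inflamed tissue over steady-state cells in the joint node (horizontal) and in the skin node (vertical). Core genes lie between -0.85 and 0.43, whereas the paralogues Rps27l (1.88 and 2.44), Rpl39l (1.87 and 0.65) and Rpl3l (2.64 and 4.33, the latter both on low counts) lie apart to the right.

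The order of the groups was shared by most of the core. Group means rose from nonmigrated through migrated to steady-state cells in 71 of 77 core genes in the joint and 56 of 77 in the skin. This order was not counted over all genes. In the joint its last step leaned on joint node steady replicate 3. Without that library the members' median log2 fold change of migrated over steady-state cells was -0.05. The highest group mean was that of Rpsa in skin migrated cells (3141 CPM) and the lowest that of Rpl24 in skin nonmigrated cells (56.6 CPM). The level of Rpl24 can be understated, since Gm28037 overlaps it. Within groups the core genes also varied together. After the group mean was taken from each gene's log2 level, the median correlation between pairs of core genes over the 18 libraries was 0.91 (quartiles 0.86 and 0.94). The mean was 0.89 for core genes and 0.02 for 2615 other genes with a mean level at or above that of the lowest core gene. These other genes were not matched in level to the core, and all of these points share libraries, depth and scaling. TMM scaling centers each library over most genes, which holds a mean correlation over so large a set near 0. The value of the other genes is therefore no yardstick for a family. Joint node steady replicate 3 lay 0.37 above its group mean on the log2 scale averaged over core genes, joint migrated replicate 1 lay 0.20 above and joint migrated replicate 3 lay 0.21 below.

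**Figure D4:**
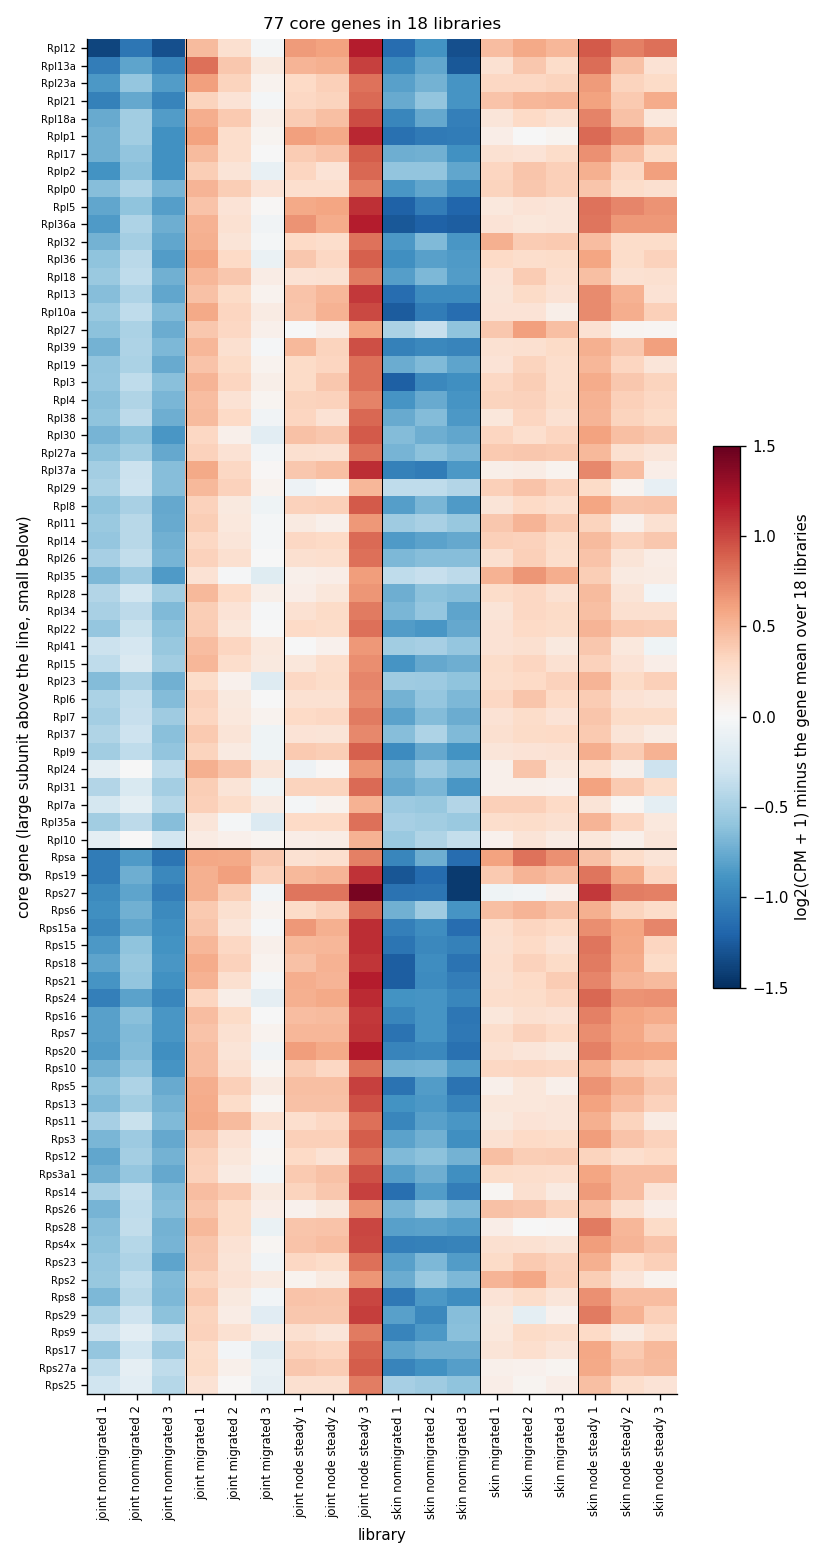
Rows are the 77 core genes, with large-subunit genes above the line, columns are the 18 libraries, and color gives log2(CPM + 1) minus the mean of the gene over all libraries, which ran from -1.44 to 1.42. Nonmigrated libraries are blue (below the mean) in nearly all rows, and joint node steady replicate 3 is the reddest column.

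Changes of the paralogues were mixed. In the joint 2 of 7 tested rose, 1 fell and 4 did not pass (27.1% of all genes rose and 28.4% fell). In the skin 4 rose and 1 fell (28.1% and 28.9% of all genes). Rps27l, the paralogue of Rps27 and a known target of p53, moved against its core gene relative to steady state in both nodes. The coding sequences of the pair, taken from GENCODE M21 (GRCm38), have 252 bases each without the stop codon, of which 192 are identical (76.2%). Of the 60 differences, 53 fall on the last base of a codon. Both are printed because their levels moved in opposite directions against steady state, and capitals mark the bases of Rps27l that differ from Rps27.
Rps27, exons within chr3:90212728-90213615 (minus strand): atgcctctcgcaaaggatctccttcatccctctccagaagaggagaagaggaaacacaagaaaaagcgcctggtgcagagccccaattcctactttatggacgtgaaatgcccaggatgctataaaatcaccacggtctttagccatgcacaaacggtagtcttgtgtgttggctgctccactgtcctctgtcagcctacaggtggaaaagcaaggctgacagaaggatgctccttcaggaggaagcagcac
Rps27l, exons within chr9:66946175-66949354 (plus strand): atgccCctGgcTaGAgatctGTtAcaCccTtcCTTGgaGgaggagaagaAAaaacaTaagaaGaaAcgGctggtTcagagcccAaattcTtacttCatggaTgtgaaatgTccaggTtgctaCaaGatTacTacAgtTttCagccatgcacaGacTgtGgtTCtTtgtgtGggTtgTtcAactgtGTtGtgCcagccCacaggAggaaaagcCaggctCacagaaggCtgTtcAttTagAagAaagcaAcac

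Rps27l was at 10.7, 7.00 and 11.5 CPM in the joint node at steady state and 26.5, 36.7 and 42.2 CPM in joint migrated cells. In the skin node it was at 9.78, 9.45 and 8.31 CPM at steady state and 45.4, 51.1 and 50.2 CPM in skin migrated cells. All inflamed libraries lay above all steady-state libraries, with log2 fold changes of 1.88 ± 0.19 in the joint node (adjusted p = 2.81e-06, edgeR) and 2.44 ± 0.19 in the skin node (adjusted p = 1.65e-07, edgeR). Nonmigrated cells held it at 28.3 to 32.3 CPM in the joint and 34.2 to 36.2 CPM in the skin. Migrated cells exceeded these in the skin (0.47 ± 0.15, adjusted p = 0.0175, edgeR), and in the joint the change was 0.21 ± 0.15 and did not pass. The skin call was lost under 3 of the alternatives, among them leaving out skin migrated replicate 2 or 3 (adjusted p = 0.0558 and 0.0551, edgeR). As a share of Rps27 counts in the same library, Rps27l counts were 0.551% ± 0.130 and 0.579% ± 0.0498 at steady state in the joint and skin nodes. The share was 3.43% ± 1.45 in joint migrated and 5.66% ± 0.333 in skin migrated cells. It was highest in nonmigrated cells, at 6.64% ± 0.211 in the joint and 9.38% ± 1.08 in the skin (SD, n = 3). This ratio within a library needs no scaling, although it compares genes with different amounts of sequence shared with other genes.

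**Figure D5:**
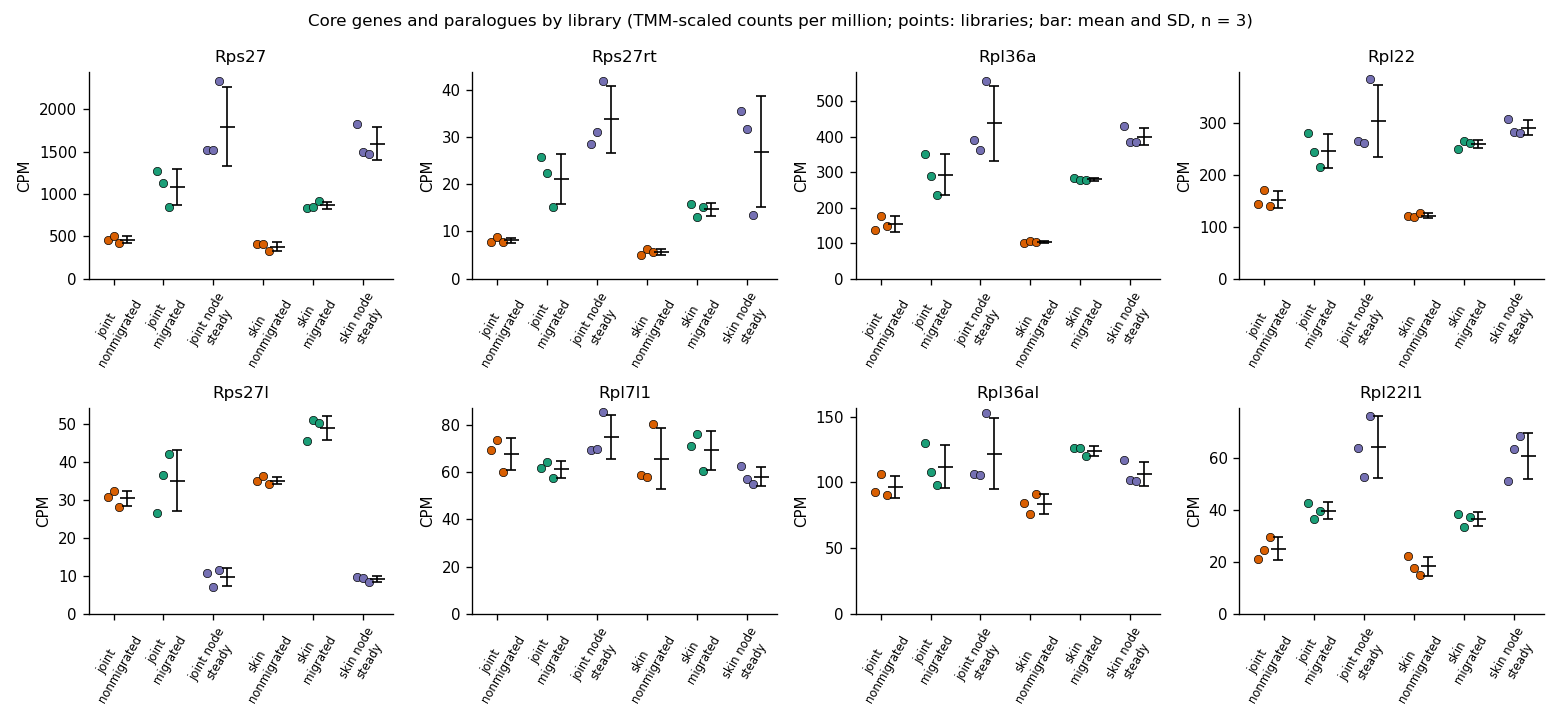
Panels give the level of 8 genes in CPM for every library, with the mean and SD of each group (n = 3). Rps27 and Rps27rt are highest at steady state, Rps27l is lowest there (7.00 to 11.5 CPM), and Rpl7l1 stays between 54.8 and 85.5 CPM in all libraries.

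Rps27rt is a single-exon copy on chromosome 9 whose coding sequence is identical to that of Rps27 over all 252 bases, so that reads from the coding part cannot be assigned to either gene. Its counts were 1.51% to 1.94% of those of Rps27 as group means, and it moved with Rps27: 1.38 ± 0.19 on the log2 scale in joint and 1.38 ± 0.20 in skin migrated against nonmigrated cells. Its own expression is uncertain for this reason. Rpl3l, a copy of Rpl3 known from striated muscle, with 74.4% identity over the aligned coding bases, was the member that fell at both sites. Its counts were 31, 23 and 47 in joint nonmigrated and 13, 16 and 12 in joint migrated cells (log2 fold change -1.74 ± 0.49, adjusted p = 0.00970, edgeR). In skin they were 31, 66 and 29 in nonmigrated and 16, 34 and 16 in migrated cells (-1.20 ± 0.47, adjusted p = 0.0447, edgeR), a call that was lost under 9 of the alternatives. These included total counts (adjusted p = 0.108, edgeR) and leaving out skin nonmigrated replicate 1 or 2 (0.0501 and 0.235) or skin migrated replicate 1 or 3 (0.134 and 0.141). Both steady-state groups held 0 to 4 counts per library, so that the fitted log2 fold changes of 2.64 and 4.33 over steady state depend on the prior count of the fit.

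Rpl36al, an autosomal copy of the X-linked Rpl36a with 87.7% identity, was at 93.0, 106 and 90.4 CPM in joint nonmigrated and 130, 108 and 97.9 CPM in joint migrated cells, and did not pass (0.21 ± 0.12). It rose in the skin by 0.56 ± 0.12. Its counts were 81.1% ± 8.26 of those of Rpl36a in skin nonmigrated, 44.3% ± 1.32 in skin migrated and 26.6% ± 0.612 in steady-state skin node cells. The joint gave the same order with 63.1% ± 4.60, 38.5% ± 2.45 and 27.9% ± 1.07. The libraries of these groups did not overlap within either site. Rpl22l1, the paralogue of the RNA-binding protein Rpl22, rose with its core gene in migrated cells (0.66 ± 0.16 in the joint and 0.99 ± 0.17 in the skin). It was lower than at steady state in both nodes (-0.66 ± 0.14 and -0.71 ± 0.14). Rpl7l1, whose product acts in ribosome assembly, was at 57.3 to 85.5 CPM in the joint libraries and changed by -0.14 ± 0.14 in the joint and 0.07 ± 0.14 in the skin, neither passing. Rpl39l, a testis-enriched copy of Rpl39, had 0 to 34 counts per library and passed in 1 comparison, joint migrated (25, 21 and 34 counts) against steady state (6, 3 and 12 counts). That call was lost under 3 of the alternatives, among them leaving out joint node steady replicate 1 or 2 (adjusted p = 0.0538 and 0.0663, edgeR). Over nonmigrated cells its log2 fold changes, 1.83 in the joint and 1.84 in the skin, were the largest of the family and did not pass. Rps19bp1 was at 10.4, 11.5 and 8.42 CPM in joint nonmigrated and 8.62, 7.76 and 5.83 CPM in joint migrated cells (-0.45 ± 0.17, adjusted p = 0.0454, edgeR). Its libraries overlapped, and the call was lost under 8 of the alternatives. These included total counts (adjusted p = 0.554, edgeR) and leaving out joint nonmigrated replicate 1 or 2 (0.101 and 0.157) or joint migrated replicate 2 or 3 (0.0778 and 0.216).

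Other genes of the translation machinery were counted in lists chosen for their function, beside 27.1% of all genes higher and 28.4% lower in the joint and 28.1% and 28.9% in the skin. Fau, which encodes a small-subunit protein made as a fusion with a ubiquitin-like protein and is not matched by the symbol rule, rose at both sites, with log2 fold changes of 0.61 ± 0.14 in the joint and 0.38 ± 0.14 in the skin. Of 19 translation factors and related genes whose messages carry a TOP tract, 15 rose and none fell in the joint, and 18 rose and none fell in the skin, with medians of 0.60 and 0.91. Eef1b2 and Eef1g, subunits of the elongation factor 1 complex, rose in the joint by 0.98 ± 0.11 and 1.07 ± 0.13, and the nucleolar gene Npm1 by 0.83 ± 0.12. Of 30 ribosome assembly genes, 18 rose and 1 fell in the joint, and 25 rose and none fell in the skin. Dkc1, the pseudouridine synthase of rRNA, and Ddx21, a nucleolar RNA helicase, rose in the joint by 1.11 ± 0.18 and 0.70 ± 0.11. Tsr1, which completes the small subunit, was at 16.9 ± 1.29 CPM in joint nonmigrated and 34.2 ± 1.41 CPM in joint migrated cells (SD, n = 3).

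Ribosomal proteins of the mitochondrion, which belong to a separate ribosome, were counted in the same way. In the joint 10 of 78 rose and 13 fell (27.1% and 28.4% of all genes), with a median log2 fold change of -0.09. In the skin 23 rose and 3 fell (28.1% and 28.9% of all genes), with a median of 0.22. Examples were Mrps6 (1.77 ± 0.20), Mrpl24 (0.61 ± 0.10) and Mrpl33 (-0.86 ± 0.10) in the joint. In a list of 11 genes that control translation of TOP messages or transcription of ribosomal genes, 3 rose and 3 fell in the joint, near the shares of all genes there (27.1% and 28.4%). Eif4ebp1, which encodes a repressor of cap-dependent translation that mTORC1 inactivates, went from 82.3 ± 11.8 CPM in joint nonmigrated to 11.6 ± 0.546 CPM in joint migrated cells (SD, n = 3). Its log2 fold change was -2.83 ± 0.13 in the joint and -3.46 ± 0.13 in the skin. Rptor, the subunit that defines mTORC1, rose by 0.85 ± 0.13 in the joint and Max, a partner of Myc, fell by 0.74 on the log2 scale. Over all genes tested the median was 0.02 in the joint and 0.01 in the skin.

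Reads of this family are hard to place, because the genome holds many processed copies. Of the 77 core genes, 47 shared more than 50% of their longest coding transcript with transcripts of other genes at 98% identity over at least 100 bases, 8 shared none, and the median share was 63.0%. The authors' counting kept uniquely aligned reads only, so levels of genes with many copies can be understated. The 10 core genes with under 10% shared sequence had median log2 fold changes of 0.92 in the joint and 1.14 in the skin, and the 47 with over 50% had 0.82 and 1.06. The annotated pseudogene rows held 0.00664% to 0.0273% of assigned counts per library. Of the 42 tested rows, 30 rose and 2 fell in the joint (27.1% and 28.4% of all genes). In the skin 26 rose and 0 fell (28.1% and 28.9% of all genes). The share of alignments discarded as not unique was 9.24% to 10.4% in the inflamed groups and 10.7% to 12.7% in the steady-state nodes.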

How the data were processed

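RNA was measured in 18 libraries of mouse cells, sorted as CD45+ Kaede red+ per the labels. The letters KG in the titles of the joint steady-state group are not explained in the sources used here. The authors trimmed paired reads with Trim Galore, aligned them with TopHat2 to mm10 and deposited raw counts per Ensembl 87 gene from HTSeq in its default mode, which keeps uniquely aligned reads. Cufflinks, FastQC and DESeq2 are also named in the submitters' processing notes. From these counts, 5 summary rows were left out (reads in no gene 0.103% to 0.624% of the total), and 49326 of 49585 genes were matched to GENCODE M21, for names and positions. Groups came from the source labels.

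Counts were tested with edgeR 4.0.16 (R 4.3.3; TMM, filterByExpr with a minimum count of 10, glmQLFit and glmQLFTest). The 12 inflamed libraries (16777 genes) and the 12 lymph node libraries (17107 genes) were fitted separately, with group as the only term. A gene passed at a Benjamini-Hochberg adjusted p under 0.05 over all genes, and the SE was derived from the F statistic. The fits were tested on simulated counts. The floor of 3 counts equals 0.0616 to 0.180 CPM, for counting error only. Replicates differed far beyond counting error (chi-square per degree of freedom 16.2 to 129.5). Shares and levels per length have no test. Shared sequence was found with blastn 2.17.0, and coding sequences were aligned with Biopython 1.88.

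Genes were named by a rule: all stalk, 5S particle, X-linked and paralogue members and Rps19bp1, the 5 members with the largest change in each direction per comparison among those that passed, the 5 highest and the 5 lowest core members per exon length, Fau and the 3 genes with the smallest p of each list in the joint. Rps3, Rps6, Rps10, Rps16, Rps18, Rps25, Rps28 and Rps29, and Rps27a and Rps9 in the interaction, fell outside the rule and were named after their values or sequences were seen. Coding sequences are printed in place of proteins, which were not used here. A further gene of the rule is not reported here. Members and lists were chosen with earlier results of these data known. Alternatives were an adjusted p under 0.001, other scalings (DESeq2 size factors, total counts, TMM factors from other genes), the DESeq2 1.42.0 Wald test, no filter, a replicate block, only the groups compared, all 18 samples, each library left out and, for shares, protein-coding genes or structural members only. The difference between nodes and the transcript length for levels were added after seeing the data.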

Additional observations from a re-analysis of the deposited data

Results flagged for a closer look

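The difference of Rpl7l1, a paralogue whose product acts in ribosome assembly, between migrated and steady-state cells was called unequal in the 2 nodes by the main fit only narrowly. The steady-state groups are not alike in their titles (PBS and KG in the joint, Naive in the skin). A difference between these groups cannot be told apart from a response to inflammation. The log2 fold change of migrated cells over steady state was -0.26 ± 0.11 in the joint node, which did not pass the test, and 0.28 ± 0.11 in the skin node, which did. The difference, joint minus skin, was -0.54 ± 0.16 (adjusted p = 0.0494, edgeR's quasi-likelihood test over 17107 genes, a contrast added after seeing the data). Rpl7l1 was at 69.3, 69.6 and 85.5 CPM in the joint node at steady state and 61.9, 64.4 and 57.3 CPM in joint migrated cells. It was at 62.6, 56.9 and 54.8 CPM in the skin node at steady state and 71.2, 76.1 and 60.2 CPM in skin migrated cells, which overlap. The adjusted p of the difference ranged from 0.0202 to 0.151 over 19 alternatives with no change of sign (log2 difference -0.58 to -0.38), and it passed in 4 and was lost in 15. These 15 include total counts (0.111) and leaving out any 1 of the 12 libraries except skin migrated replicate 3, and without joint node steady replicate 3 it was 0.121 (log2 difference -0.38). The rise in the skin node (adjusted p = 0.0425, edgeR) was lost under 10 alternatives, among them total counts (0.386) and leaving out skin migrated replicate 1 (0.151) or 2 (0.253) or any 1 of the skin node steady replicates (0.0633 to 0.203). It was the single member of 85 to pass, joint node steady replicate 3 has the highest value, and the cause was not tested.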

How the results depend on the processing

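The rise of the family in migrated over nonmigrated cells held under every alternative run except for the few members that fell: leaving out 1 library gave 76 to 79 members higher in the joint (median log2 fold change 0.74 to 0.96, 1 to 2 lower) and 80 to 82 in the skin (1.06 to 1.10, 0 to 1 lower). Scaling by total counts moved the median of all genes to 0.33 in the joint and 0.28 in the skin. The members' medians moved to 1.16 and 1.33. Members exceeded all genes by 0.82 and 1.05, as with TMM factors. Scaling shifts all genes of a comparison by about the same amount, so this difference could hardly change and is no test of the rise. With total counts 1 member was lower in the joint and 0 in the skin, 0 were lower in joint than in skin migrated cells, and in the skin node 2 were higher and 33 lower (median -0.27). At an adjusted p under 0.001, 0 members were lower at either site, 0 passed between nonmigrated or between migrated groups, 1 was higher and 0 lower in the joint node, and 2 were higher and 1 lower in the skin node. Without a filter, 1 was lower in the joint, 0 in the skin, 0 between migrated groups, and 30 in the joint node. With only the groups compared, these counts were 1, 0, 0 and 6, while 11 members were higher between nonmigrated groups and 11 were higher and 31 lower in the skin node. With all 18 samples, 0 were lower in the skin and 9 higher between nonmigrated groups. DESeq2 gave 2 lower members each for the interaction, the nonmigrated and the migrated groups, and 1 higher between steady-state groups. The cause of these shifts was not tested.

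Leaving out 1 library gave 0 to 2 lower members for the interaction (median -0.31 to -0.11), 3 to 17 higher and 0 to 1 lower between nonmigrated groups (0.14 to 0.29), and 0 lower between migrated groups (-0.11 to 0.08). It gave 2 to 8 higher and 6 to 41 lower in the joint node (-0.42 to -0.05), 2 to 5 higher and 6 to 16 lower in the skin node (-0.19 to -0.07), and medians of -0.09 to 0.20 between steady-state groups. Whether the replicate numbers pair the samples cannot be settled from 3 libraries per group. Deviations of libraries with the same number correlated between -0.35 and 0.25 over the pairs of groups. For migrated with nonmigrated cells of the same site all were positive, 0.02 to 0.25 in the joint and 0.07 to 0.17 in the skin. With the replicate number as a block, 78 members were higher and 2 lower in the joint, 81 and 1 in the skin, 16 and 0 between nonmigrated groups, 3 and 13 in the joint node and 4 and 9 in the skin node. The block moved none of these counts by more than 1.5 times. With it the single call of the difference between nodes, Rpl7l1, was lost (adjusted p = 0.0770, edgeR). Genes at a few counts per library (Rpl3l, Rpl39l) are limited by depth, and the rest by the spread between 3 pools.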
